A study of Mus musculus with 7 samples.

Results

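Mammary tumours that arose in ECD transgenic mice were compared by histological type. The 2 libraries labelled adenosquamous carcinoma, from tumours 1a and 1b, formed one arm. The other arm held 1 library labelled spindle cell carcinoma, from tumour 3, and 1 labelled papillary carcinoma, from tumour 4. These 4 libraries were taken by their tissue label out of 7 in the series, and the remaining 3, from control mammary glands, served only as a reference level. All 4 tumours come from ECD transgenic mice, and the glands are labelled as controls with no further genotype. The sources used here do not give the promoter or species of the transgene or the strain and age of the mice, and they leave unsaid if 1 animal bore both tumours 1a and 1b. Each tumour was sampled as a piece of its centre, so a library is 1 piece of 1 tumour. If tumours 1a and 1b shared an animal, their agreement would not be agreement between animals, and all p-values here measure only the spread between these pieces.

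Adenosquamous carcinoma is a mammary tumour in which glandular epithelium lies beside nests of squamous epithelium, the layered tissue of skin. Squamous cells start from a basal layer that holds keratins 5 and 14 and is anchored to the basement membrane by hemidesmosomes. As they move outward they join through desmosomes, switch to suprabasal or stress keratins and lay down a cornified envelope. Wnt and beta-catenin signalling is known to drive squamous and hair-like differentiation of mammary epithelium. Spindle cell carcinoma is named for elongated cells that have lost epithelial shape, and such tumours usually hold little E-cadherin and much vimentin. Papillary carcinoma grows as fronds covered by luminal epithelium, the secretory lineage of the gland.

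Total counts were 5420562 to 28638143 per tumour, with the papillary library the deepest and adenosquamous tumour 1b the shallowest. Mitochondrial genes took 18.34% to 32.61% of the tumours' counts. Values are given as CPM, counts per 1000000 after TMM scaling of the 4 tumours, with the glands scaled to the same reference. Of 50600 genes in the tables, 14101 had enough counts to be tested. With edgeR's quasi-likelihood test none of them (0.0%) passed a Benjamini-Hochberg adjusted p under 0.05, and the smallest adjusted p was 0.126. At an unadjusted p under 0.05 stood 2285 genes (16.2%), of which 1580 were higher in the adenosquamous arm (11.2%) and 705 lower (5.0%). DESeq2 on the same counts called 1060 genes higher (7.52%) and 325 lower (2.3%), whereas limma-voom called none, with 2297 at an unadjusted p under 0.05. Both adenosquamous tumours lay above both other tumours in 3528 genes (25.0%) and below both in 3491 (24.8%). With tumour 1a, 1b, 3 or 4 left out, 1132, 1501, 3659 and 2329 genes stood at an unadjusted p under 0.05. These shares are the background against which the counts below are read. No single gene below therefore passed the main test, and levels and differences are given as measured.

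The 2 arms were unequally uniform. The SD of the log2 difference over all tested genes was 1.00 between tumours 1a and 1b, and 753 genes (5.34%) were over 4-fold apart. Between the tumour labelled spindle cell and the papillary tumour it was 1.47, with 1701 genes (12.1%) over 4-fold apart. Distances from an adenosquamous tumour to one of the others ranged from 1.46 to 1.75. The tumour labelled spindle cell and the papillary tumour were thus about as far from each other as tumour 1b was from the tumour labelled spindle cell.

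The labels were checked on marker genes first. The adenosquamous tumours carried squamous keratins. Krt6a, a keratin of activated and stratified epithelium, stood at 468.5 CPM in tumour 1a and 318.8 in 1b, against 5.53 in the tumour labelled spindle cell and 0.333 in the papillary tumour. Krt14, the basal keratin, stood at 1149 and 580.9 CPM in the adenosquamous tumours, against 172.2 and 26.6. The papillary tumour held the luminal keratin Krt19 at 998.9 CPM, with 3.73 to 69.1 in the other tumours. Its luminal genes were mixed: of 22 tested, 12 were above both adenosquamous tumours and 6 below both. The library labelled spindle cell carcinoma went against its label. Its Cdh1, which encodes E-cadherin, was the highest of the 4 tumours at 319.8 CPM, with 93.8 and 283.5 in the adenosquamous tumours and 171.9 in the papillary tumour. Epcam, an epithelial adhesion molecule, was at 279.8 CPM there and at 79.5, 169.2 and 271.9 in tumours 1a, 1b and 4. Vim, the mesenchymal filament protein, was the lowest of the 4 at 70.0 CPM, against 706.1 and 597.9 in the adenosquamous tumours and 96.0 in the papillary tumour. Zeb1, a repressor of epithelial genes, was at 10.3 CPM, against 76.5, 21.2 and 4.95. Of the 18 tested genes of mesenchymal transition, 17 were lower in this library than in both adenosquamous tumours and none was higher. The library is therefore called the tumour labelled spindle cell throughout, and no direction below is read as a property of spindle cell histology.

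**Figure D1:**
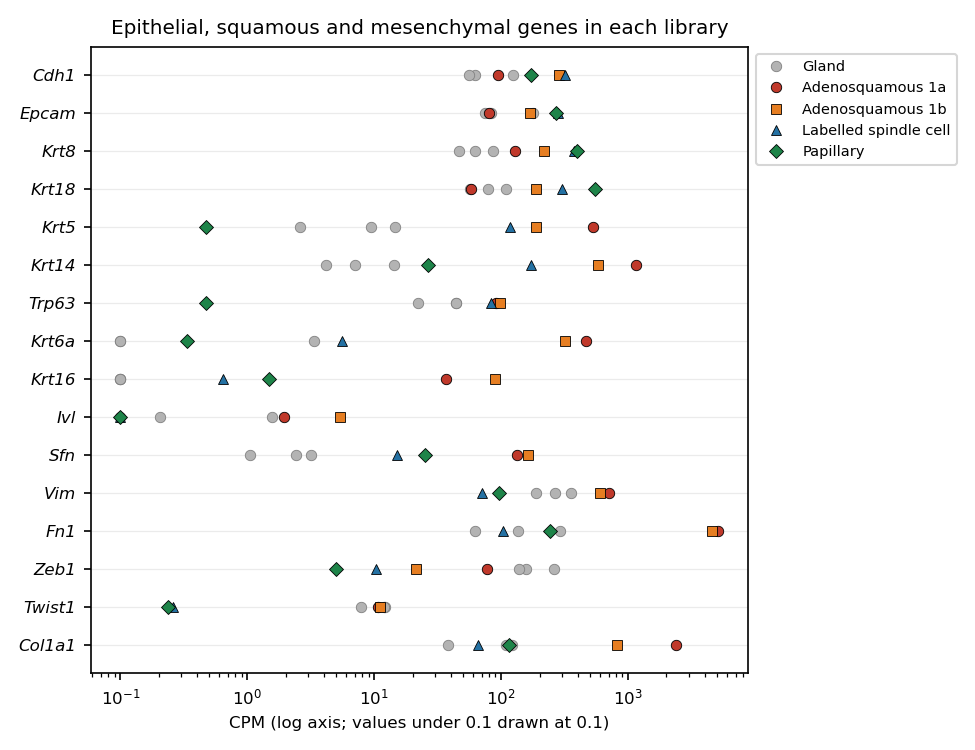
CPM on a log axis of 16 epithelial, squamous and mesenchymal genes, 1 point per library, grey for the 3 control glands. The tumour labelled spindle cell (blue triangles) has the lowest Vim and Fn1 of the 4 tumours and the highest Cdh1, and the adenosquamous tumours stand apart in Krt6a and Krt16.

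Suprabasal and stress keratins were a clear feature of both adenosquamous tumours, though only 8 of the 15 on the list had counts enough to be tested. Of these 8, 6 were above both other tumours in both adenosquamous tumours, none was below, and 4 were higher at an unadjusted p under 0.05, with a median log2 difference of 3.49 beside -0.07 for all genes tested. Some of them, such as Krt16, Krt6b and Krt80, passed the count filter only through the adenosquamous arm. Their direction was thus fixed by the filter, which also set the size of this median in part. Without tumour 1b the 4 became 2. Krt16, the partner of keratin 6 in wounded epidermis, stood at 36.7 and 88.7 CPM in tumours 1a and 1b, against 0.643 in the tumour labelled spindle cell and 1.48 in the papillary tumour. The log2 difference was 5.80 (unadjusted p = 0.000913, edgeR adjusted p = 0.126). Krt6b followed the same order at 23.2 and 44.9 CPM, against 0.771 and 0, though reads of the near-identical keratin 6 genes can be split between copies. Krt17, a stress and appendage keratin, was at 302.9 and 108.8 CPM, against 30.1 and 1.52. In the glands these keratins were at 4.88 CPM or below, and Krt6a reached 3.37 CPM in 1 gland and 0 in the others. Krt10, a keratin of orderly epidermal differentiation, had too few counts to be tested. It was at 1.03 and 1.29 CPM in the adenosquamous tumours and at 0.129 and 0.952 in the others, and it was at 1.92 to 7.82 in the glands.

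Cornified envelope genes were detected in part. Of 37 genes on the list, 14 could be tested, 9 of them had both adenosquamous tumours above both others and none the reverse, and 6 were higher at an unadjusted p under 0.05, which became 3 without tumour 1b and 11 without the tumour labelled spindle cell. Ivl, the envelope scaffold involucrin, was at 1.94 and 5.36 CPM in tumours 1a and 1b and at 0 in both other tumours. Lypd3, a surface protein of suprabasal cells, was at 9.61 and 14.96 CPM, against 0.386 and 0.571, a log2 difference of 4.60 (unadjusted p = 0.000849). Dmkn, a secreted epidermal protein, was at 30.0 and 23.8 CPM, against 2.83 and 1.33. Sprr1a, a small proline-rich cross-linked protein, was at 4.35 and 6.83 CPM, against 1.16 and 0, with overlap with the glands at 0 to 5.91. Loricrin, the main protein of the finished envelope (Lor), had no count in any of the 7 libraries, and 6 of the 23 untested genes were at 0 in all 4 tumours. The 14 testable genes passed the count filter mostly through the arm in which they were present.

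Basal keratins and hemidesmosome components set the adenosquamous tumours apart from the papillary tumour far more than from the tumour labelled spindle cell. All 17 genes were tested. Both adenosquamous tumours were above both others in 13 and below in 1, and 6 were higher and 1 lower at an unadjusted p under 0.05, with a median log2 difference of 1.81. Leaving out the tumour labelled spindle cell moved that median to 4.88 and the count of 6 to 14, and leaving out tumour 1b moved the count to 3. Itga3, a laminin receptor chain, was at 87.5 and 173.1 CPM in tumours 1a and 1b, 25.7 in the tumour labelled spindle cell and 23.1 in the papillary tumour. Krt5, the partner of keratin 14, was at 523.0 and 187.9 CPM, against 117.5 and 0.476. Trp63, the master factor of the basal layer, set only the papillary tumour far apart: it was at 90.4 and 97.2 CPM in the adenosquamous tumours, 83.7 in the tumour labelled spindle cell and 0.476 in the papillary tumour. Itga6, the alpha chain of the hemidesmosomal integrin, ran the other way, at 171.1 and 273.6 CPM against 422.4 and 872.5. Krt5 and Trp63 were therefore close to absent in the papillary tumour, whereas Krt14 was at 26.6 CPM there, above the glands at 4.17 to 14.3.

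Of 15 desmosome genes tested, both adenosquamous tumours were above both others in 6, below in 1 and overlapping in 8, with 3 higher at an unadjusted p under 0.05. Without the tumour labelled spindle cell the median log2 difference went from 0.79 to 3.86 and the count from 3 to 8, and without tumour 1a the count was 5. Sfn, the 14-3-3 sigma protein of stratified epithelium, was at 132.1 and 160.9 CPM, against 15.2 and 25.1 (log2 difference 2.86, SE 0.40, unadjusted p = 0.00126). Dsg3, the basal desmoglein, was at 58.3 and 93.1 CPM in tumours 1a and 1b, 36.0 in the tumour labelled spindle cell and 0.238 in the papillary tumour. Dsp, the desmoplakin that ties desmosomes to keratin, was at 437.5, 706.0 and 553.6 CPM in these 3 tumours and at 18.1 in the papillary tumour. Dsc3, another desmosomal cadherin, was at 103.9 CPM in the tumour labelled spindle cell and at 9.95, 0.369 and 0.0952 in tumours 1a, 1b and 4. The tumour labelled spindle cell was thus in the range of the adenosquamous tumours, or above it, for several junction genes.

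Of 16 transcription factors of squamous fate tested, 4 were above and 4 below in both adenosquamous tumours, close to the background of 25.0% and 24.8% over all genes, 8 overlapped, and 3 were higher and 1 lower at an unadjusted p under 0.05. The count of 3 was 6 without the tumour labelled spindle cell and 1 without tumour 1b. Prdm1, which encodes the terminal differentiation factor Blimp1, was at 31.3 and 38.2 CPM, against 4.11 and 4.05 (log2 difference 3.09, unadjusted p = 0.000509). Barx2, a homeobox factor, was at 2.17 and 1.29 CPM, against 16.8 and 13.6. Zfp750, an epidermal differentiation factor, was at 3.77 and 19.2 CPM, against 45.0 and 49.1. Sox2 and Pitx1 were seen mostly in the tumour labelled spindle cell: Sox2 was at 26.5 CPM there and at 0.143 to 0.369 in the other 3 tumours, and Pitx1 at 50.7 CPM, with 13.3, 0.924 and 0.0476 in tumours 1a, 1b and 4.

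Milk genes, and luminal genes in part, were led by the papillary tumour and not by the arm as a whole. Of 22 luminal genes tested, both adenosquamous tumours were above both others in 4, below in 7 and overlapping in 11, with 3 higher and 2 lower at an unadjusted p under 0.05. With 1 tumour left out these ranged from 3 to 6 higher and 0 to 7 lower. Krt8, the luminal keratin, was at 129.4 and 216.7 CPM in tumours 1a and 1b, 373.9 in the tumour labelled spindle cell and 391.5 in the papillary tumour (log2 difference -1.15, SE 0.41). Its partner Krt18 was at 57.5 and 188.8 CPM, against 303.3 and 550.8. Elf5, the factor of the alveolar lineage, was at 10.1 and 28.1 CPM, against 94.8 and 751.1. Krt8 and Krt18 were thus lower in both adenosquamous tumours than in both others, while for Krt19, given above, the arms overlapped. The glands were at 46.5 to 86.3 CPM for Krt8 and 57.0 to 108.2 for Krt18. Esr1, the oestrogen receptor, was at 13.6 and 11.6 CPM in the adenosquamous tumours, 0.257 in the tumour labelled spindle cell and 27.6 in the papillary tumour, so the arms overlapped.

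Of 18 milk and lactation genes tested, none had both adenosquamous tumours above both others, 6 had both below, and 5 were lower at an unadjusted p under 0.05. The median log2 difference was -4.96, and without the papillary tumour it was 3.72, so its sign rested on that library. The count of 5 was 17 without the tumour labelled spindle cell, 2 without the papillary tumour or 1b and 1 without 1a. Csn2, the milk protein beta-casein, was at 54110 CPM in the papillary tumour and 0.386 in the tumour labelled spindle cell, with 822.2 and 176.8 in the adenosquamous tumours. The adenosquamous tumours lay between the others, as they did for Csn1s1, Csn1s2a and Csn3. Wfdc18, a secreted protease inhibitor family member, was low in both adenosquamous tumours at 13.8 and 39.3 CPM, against 603.0 and 250.2 (log2 difference -4.01, unadjusted p = 0.00547). Ltf, the iron-binding milk protein lactoferrin, was highest in the tumour labelled spindle cell at 3444 CPM, with 888.5 in the papillary tumour and 13.4 and 229.0 in the adenosquamous tumours. The glands held 130.0 to 8760 CPM of Csn2, which spans the adenosquamous values.

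**Figure D2:**
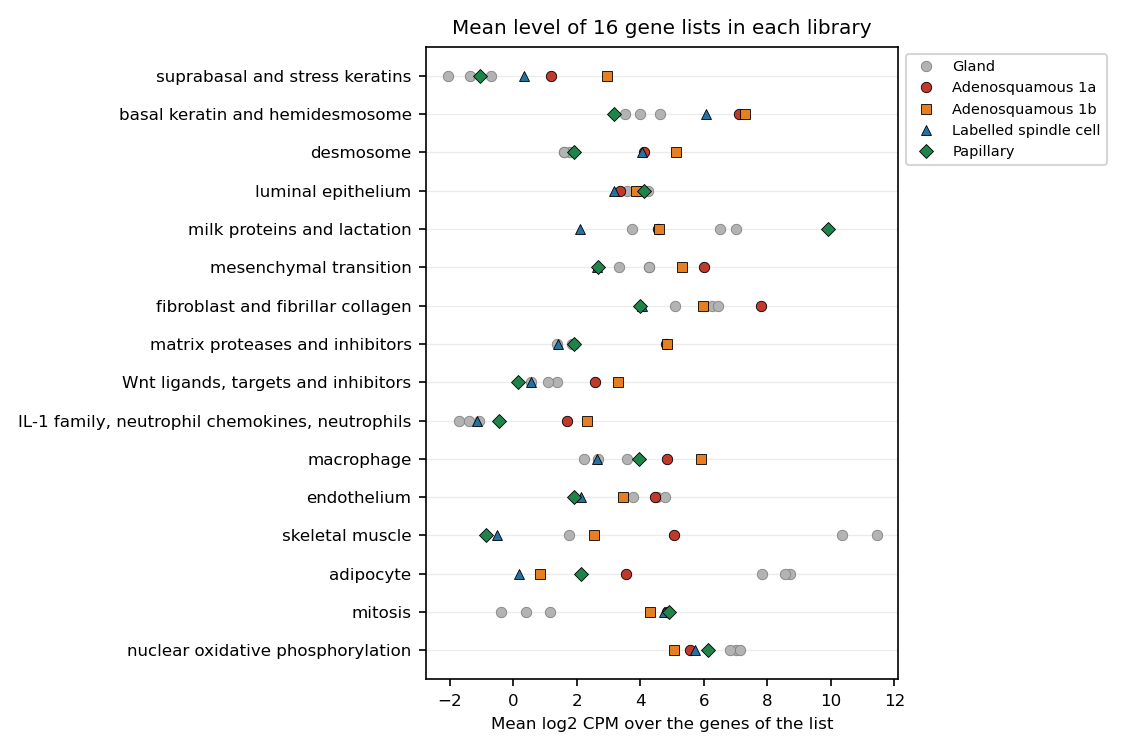
Mean log2 CPM over the genes of 16 lists, 1 point per library, grey for the 3 control glands. The adenosquamous tumours lie to the right of both other tumours for mesenchymal, protease, Wnt and IL-1 lists, and the 4 tumours lie close together for mitosis. Among the tumours, only the papillary tumour is high for milk genes and low for basal keratin genes. Glands 1 and 2 are also high for milk genes, at 7.01 and 6.51, and the glands are low for basal keratin genes, at 3.52 to 4.63.

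Genes of mesenchymal transition were higher in the adenosquamous tumours than in both other tumours almost throughout. Of 20 on the list 18 were tested, 16 had both adenosquamous tumours above both others and none below, 15 were higher at an unadjusted p under 0.05, and DESeq2 called 14 higher. The median log2 difference was 3.02. Some of these genes, such as Twist1 and Snai1, passed the count filter only through the adenosquamous arm. Fn1, the matrix protein fibronectin, was at 5134 and 4598 CPM in tumours 1a and 1b, 102.9 in the tumour labelled spindle cell and 240.9 in the papillary tumour, with 62.6 to 287.6 in the glands. The log2 difference of Vim was 2.97 (SE 0.41, unadjusted p = 0.00119, edgeR adjusted p = 0.126). Twist1, a transition factor, was at 10.6 and 11.1 CPM, against 0.257 and 0.238 (log2 difference 5.40, unadjusted p = 0.000327). Itga5, the fibronectin receptor chain, was at 111.4 and 76.5 CPM, against 11.7 and 11.2. Snai1 was at 10.1 and 7.39 CPM, against 0.771 and 0.666, and Zeb2 at 162.1 and 265.8, against 27.4 and 35.8. The glands held Twist1 at 7.82 to 12.2 CPM and Zeb2 at 201.8 to 362.6. For Twist1 and Zeb2 the other tumours were therefore the ones away from the glands. Zeb1 was higher in the glands, at 137.8 to 262.3 CPM, than in any tumour. Snai1 at 0 to 1.17 CPM and Itga5 at 6.26 to 13.5 were low in the glands. The adenosquamous tumours therefore held both squamous keratin and mesenchymal RNA. The 2 genes whose arms overlapped include Tnc, the matrix protein tenascin C, at 1883 and 977.9 CPM in the adenosquamous tumours, 29.4 in the tumour labelled spindle cell and 1080 in the papillary tumour.

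Fibroblast and fibrillar collagen genes moved with them. In a bulk piece of tissue, fewer cells of a type and less RNA per cell cannot be told apart, and tumour cells in transition cannot be told apart from fibroblasts by these genes. Of 21 tested, both adenosquamous tumours were above both others in 18 and below in none, 18 were higher at an unadjusted p under 0.05, and DESeq2 called 16 higher. Col1a1 was at 2372 and 817.4 CPM in tumours 1a and 1b, against 65.4 and 115.5. Col3a1 was at 3001 and 683.1 CPM, against 117.9 and 122.2. Col6a3, a beaded-filament collagen, was at 808.7 and 428.0 CPM, against 34.7 and 45.9, and Thy1, a fibroblast surface protein, at 18.8 and 17.4, against 2.44 and 1.67. The glands held Thy1 at 4.69 to 20.85 CPM, which spans the adenosquamous values. The summed level of the fibroblast list was 17050 CPM in tumour 1a and 5512 in 1b, 804.8 in the tumour labelled spindle cell and 866.3 in the papillary tumour, and the glands ranged from 1276 to 3478. The part of fibroblast number in the mesenchymal difference was not tested.

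Endothelial genes were likewise above both other tumours in both adenosquamous tumours in all 19 of the 19 tested, with 13 higher at an unadjusted p under 0.05 and 5 called by DESeq2. The 13 became 2 without tumour 1a, 8 without 1b and 8 without the papillary tumour. Their differences were smaller, with a median of 1.88 on the log2 scale, and in the glands their summed level, 567.4 to 944.0 CPM, was above that of tumour 1b at 438.3. It was 706.2 CPM in tumour 1a, 191.2 in the tumour labelled spindle cell and 149.8 in the papillary tumour. Eng, the endothelial co-receptor endoglin, was at 32.1 and 30.5 CPM, against 7.20 and 6.95. Prox1, the lymphatic endothelial factor, was at 9.95 and 1.85 CPM, against 0.129 and 0.143. Tumour 1a held more vessel RNA than 1b by the summed level.

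Matrix proteases and their inhibitors were higher in both adenosquamous tumours over most of the list. Of 22 on the list 18 were tested. Both adenosquamous tumours were above both others in 15 and below in none, 13 were higher at an unadjusted p under 0.05, DESeq2 called 14 higher, and the median log2 difference was 3.03. Some of these genes, such as Mmp9 and Mmp10, passed the count filter only through the adenosquamous arm, so these values were set in part by the filter. Mmp9, a gelatinase, was at 400.0 and 87.6 CPM in tumours 1a and 1b, against 0.643 and 0.762 (log2 difference 8.40, SE 1.07, unadjusted p = 0.000833). Mmp13, a collagenase, was at 362.3 and 196.5 CPM, against 1.93 and 7.38, and Mmp10, a stromelysin, at 105.5 and 14.4, against 0.386 and 0.381. Plau, the urokinase plasminogen activator, was at 95.7 and 117.1 CPM, against 3.09 and 8.95. Timp1, an inhibitor of these enzymes, was at 95.4 and 59.5 CPM, against 2.96 and 5.999. Enzymes and inhibitor were thus both more abundant in the adenosquamous tumours, and in the glands Mmp10 was at 0 and Mmp13 at 0 to 0.206 CPM.

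Promoters of 2 of these genes are shown because they hold a short sequence found in part of the list. AP-1, the dimer of Fos and Jun proteins, binds TGAGTCA, or TGACTCA read on the other strand. In RefSeq promoters on GRCm38.p6, taken from 250 bases before to 50 after the start site, this sequence lay in 5.2% of 32851 promoters. It lay in 8 of the 17 genes of the protease list with a promoter in that table: Mmp10, Mmp12, Mmp13, Mmp1a, Mmp1b, Mmp3, Mmp7 and Plaur. The first share counts promoters and the second counts genes, so they are not the same unit. All of these genes but Plaur are related Mmp genes, and Mmp10, Mmp12 and Mmp13 lie near each other on chromosome 9. Mmp9 and Timp1 are not among them. The sequence is in capitals in the promoters of Mmp10 (chr9:7502092-7502391, plus strand) and Mmp13 (chr9:7272264-7272563, plus strand), where it starts 63 and 35 bases before the start site.
Mmp10: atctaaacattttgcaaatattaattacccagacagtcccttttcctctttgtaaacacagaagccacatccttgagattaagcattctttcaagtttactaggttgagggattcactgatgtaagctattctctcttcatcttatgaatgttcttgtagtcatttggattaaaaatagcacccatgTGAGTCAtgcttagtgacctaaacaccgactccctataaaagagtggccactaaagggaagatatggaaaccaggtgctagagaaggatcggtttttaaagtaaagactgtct
Mmp13: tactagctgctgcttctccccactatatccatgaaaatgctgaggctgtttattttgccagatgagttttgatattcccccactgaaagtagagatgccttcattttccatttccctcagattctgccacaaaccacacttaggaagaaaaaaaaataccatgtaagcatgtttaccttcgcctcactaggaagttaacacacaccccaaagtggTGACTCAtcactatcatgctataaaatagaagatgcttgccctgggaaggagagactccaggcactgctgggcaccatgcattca

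A match of letters is not a measured binding site. The AP-1 and immediate early genes themselves were described by 21 genes, all tested. Both adenosquamous tumours were above both others in 13 and below in none, 10 were higher at an unadjusted p under 0.05 and DESeq2 called 8 higher, with a median log2 difference of 1.43. Without tumour 1b the 10 became 5. Fosl1, the Fos family member most tied to invasion, was at 22.0 and 10.9 CPM in tumours 1a and 1b, against 0.386 and 0.905 (log2 difference 4.57, unadjusted p = 0.00198). Dusp1, a phosphatase that limits MAP kinase signalling, was at 43.9 and 35.1 CPM, against 9.0 and 7.57. In the glands Dusp1 was at 35.99 to 71.15 CPM, so the other tumours were the ones away from the glands.

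Genes of the IL-1 family and of neutrophil recruitment showed the largest median difference of the lists that describe signalling. Of 28 on the list 18 were tested, 15 had both adenosquamous tumours above both others and none below, and all 15 were higher at an unadjusted p under 0.05 and called by DESeq2. The median log2 difference was 5.28. It covers tested genes only, and some, such as Cxcl3, Cxcr2 and Cxcl2, passed the count filter only through the adenosquamous arm. The size of this median was thus set in part by the filter. Il1b, the cytokine interleukin-1 beta, was at 15.3 and 31.0 CPM in tumours 1a and 1b, against 0.257 and 0.381 (log2 difference 6.07, unadjusted p = 0.000399). Il1a was at 2.74 and 13.5 CPM, against 0.514 and 0.428. Ptgs2, the prostaglandin synthase COX-2, was at 79.7 and 35.5 CPM, against 0.771 and 0.381. Cxcl1, a neutrophil chemokine, was at 19.7 and 18.7 CPM, against 0.771 and 0.381 (log2 difference 5.11, SE 0.57, unadjusted p = 0.000466). Cxcl3, a related chemokine, was at 14.2 and 6.10 CPM, against 0 and 0.0476. Neutrophil genes were present at the same time: S100a8 was at 14.6 and 38.1 CPM, against 0.257 and 0.571, and Csf3r, the receptor for granulocyte colony-stimulating factor, at 19.8 and 25.7, against 1.93 and 1.76. The granule genes of maturing neutrophils were close to 0, with Mpo, Camp and Ngp at or below 0.686 CPM and Ly6g at 0 in every library. The 3 genes outside the pattern were Lcn2, Saa3 and Il1f9. Lcn2, an iron-trapping acute phase protein, was at 54.1 and 423.2 CPM in the adenosquamous tumours, 263.1 in the tumour labelled spindle cell and 2191 in the papillary tumour.

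Promoters of 2 chemokines are shown for another sequence found in part of its list. NF-kB, the factor downstream of the IL-1 receptor, was searched as GGGANNTTC, with N any base, or GAANNTCCC on the other strand. It lay in 3.94% of the 32851 promoters and in 8 of the 24 genes of this list with a promoter: Csf3r, Cxcl1, Cxcl2, Cxcl3, Cxcr2, Il1f9, Il6 and S100a9. Here too the first share counts promoters and the second counts genes. Cxcl1 and Cxcl3 are related genes that lie near each other on chromosome 5, and Il1f9 was named above as outside the pattern. In Cxcl1 (chr5:90890995-90891294, plus strand) and Cxcl3 (chr5:90785851-90786150, plus strand) both strands match in 1 overlapping run, in capitals, which starts 71 and 73 bases before the start site. The AP-1 sequence lay in 4 of these 24 and in none of 19 Wnt list genes with a promoter.
Cxcl1: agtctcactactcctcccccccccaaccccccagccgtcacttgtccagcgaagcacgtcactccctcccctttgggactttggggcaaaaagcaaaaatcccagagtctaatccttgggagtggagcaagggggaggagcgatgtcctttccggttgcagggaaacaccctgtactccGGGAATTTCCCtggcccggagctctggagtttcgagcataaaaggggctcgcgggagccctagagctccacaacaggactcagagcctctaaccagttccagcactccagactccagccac
Cxcl3: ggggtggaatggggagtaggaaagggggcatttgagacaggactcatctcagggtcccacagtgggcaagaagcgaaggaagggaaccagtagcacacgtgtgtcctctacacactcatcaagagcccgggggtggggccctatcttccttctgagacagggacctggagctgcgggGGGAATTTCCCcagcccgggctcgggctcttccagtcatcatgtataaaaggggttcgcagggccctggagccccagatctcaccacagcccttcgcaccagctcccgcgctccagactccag

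Wnt ligands, targets and inhibitors were higher in both adenosquamous tumours in large part. Of 30 on the list 22 were tested, 14 had both adenosquamous tumours above both others and 1 below, 12 were higher and 1 lower at an unadjusted p under 0.05, and DESeq2 called 12 higher and 1 lower. Some of these genes, such as Wnt10a, Wnt10b, Lef1, Axin2 and Dkk2, passed the count filter only through the adenosquamous arm. They could be counted only as higher, so these counts were set in part by the filter. Among ligands, Wnt5a was at 91.1 and 48.0 CPM in tumours 1a and 1b, against 1.16 and 1.38 (log2 difference 5.75, SE 0.53, unadjusted p = 0.000202). Wnt10a was at 8.92 and 3.69 CPM and at 0 in both other tumours, Wnt10b at 8.69 and 2.96 CPM against 0 and 0.190, and Wnt7b at 24.5 and 15.5 against 0.900 and 1.52. Among nuclear partners of beta-catenin, Lef1 was at 11.4 and 23.5 CPM, against 0.643 and 0.143, and Tcf7 at 20.1 and 24.9, against 2.31 and 1.14. Axin2, a feedback target of the pathway, was at 18.6 and 125.1 CPM, against 0.900 and 0.286. Dkk2, a modulator of the receptor LRP6, was at 78.6 and 26.0 CPM, against 0.771 and 0.571. Axin2 was higher in 1b than in 1a, and 1a was close to the glands, which were at 12.0 to 18.6 CPM. Wnt5a was at 14.6 to 21.9 CPM in the glands, so for both genes the other tumours lay below the glands. The ligands Wnt10a, Wnt10b and Wnt7b were low in the glands, at 0 to 2.41 CPM. Several of these genes were picked after their values were seen, and 7 of the 22 tested overlapped between the arms. The secreted inhibitor Sfrp1 ran the other way at 22.4 and 13.7 CPM, against 52.6 and 89.4. Sfrp2, a related inhibitor with the lowest log2 difference of the list at -2.22, was at 17.6 and 1.48 CPM, against 4.89 and 84.7, and 4 tested genes were higher in the papillary tumour than in both adenosquamous tumours. Ccnd1, cyclin D1, was at 156.2 and 236.4 CPM, 104.1 in the tumour labelled spindle cell and 877.4 in the papillary tumour, and Myc at 44.8 and 53.9, against 1.67 and 68.5, so both overlapped. The TCF sequence CTTTGAT, or ATCAAAG, lay in 2 of 19 genes of the list with a promoter, Sp5 and Wnt11. Counted by promoter and not by gene, it lay in 3.73% of all promoters. Lef1 and Tcf7 are also lymphocyte genes, and 1 gland held Lef1 at 48.5 CPM beside 0 and 0.550 in the others. The part of lymphocyte RNA in these values was not tested.

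Hair follicle and hedgehog genes separated the adenosquamous tumours from each other. Only 12 of 27 matched genes were tested, and some of these, such as Gli1 and Msx2, passed the count filter only through the adenosquamous arm. Both adenosquamous tumours were above both others in 6 and below in 2, 5 were higher at an unadjusted p under 0.05, and the median log2 difference of 2.59 was 0.40 without tumour 1b. The count of 5 was 11 without tumour 1a, 1 without 1b and 2 without the papillary tumour. Gli1, the hedgehog effector, was at 3.09 and 1.85 CPM in tumours 1a and 1b, against 0 and 0.0952. Msx2, a homeobox factor of skin appendages, was at 1.72 and 6.28 CPM, against 0 and 0.0476. Tchh, trichohyalin of the inner root sheath, was at 756.8 CPM in tumour 1b, 2.86 in 1a, 0.386 in the tumour labelled spindle cell and 0.428 in the papillary tumour. The inner root sheath keratins Krt28 and Krt27 were at 34.9 and 15.5 CPM in tumour 1b, at 0 and 0.229 in 1a and at 0 in both other tumours and all glands. Klk7, a protease that sheds cornified cells, was at 56.5 CPM in 1b and 0.114 in 1a, and Wif1, a Wnt inhibitor, at 42.7 in 1b and 0.457 in 1a. Trichohyalin and its keratins were thus a feature of 1 of the 2 adenosquamous tumours.

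Ligands of the EGF receptor changed places between the arms. Of 14 tested genes of the family, 8 had both adenosquamous tumours above both others and 4 below, and 7 were higher and 3 lower at an unadjusted p under 0.05, with 1 lower when the papillary tumour was left out. Hbegf, the heparin-binding ligand, was at 26.3 and 36.2 CPM in tumours 1a and 1b, against 1.67 and 1.48 (log2 difference 4.31, SE 0.42, unadjusted p = 0.000252). Areg, amphiregulin, was at 34.8 and 19.2 CPM, against 0.257 and 0.0952 (log2 difference 7.38, unadjusted p = 0.000303). Tgfa was at 8.12 and 46.5 CPM, against 1.41 and 0.524, and Epgn, epigen, at 10.98 and 4.43, against 0 and 0.0952. Areg and Epgn passed the count filter only through the adenosquamous arm. Egf itself was at 1.72 and 1.29 CPM, against 29.4 and 19.4 (log2 difference -4.00, SE 0.47, unadjusted p = 0.000619). Among receptors, Erbb3, the partner without kinase activity, was at 23.8 and 70.8 CPM, against 116.5 and 231.5, and Erbb4, a receptor of the lactating gland, at 0 in both adenosquamous tumours, against 2.31 and 2.28. Hbegf, Areg, Tgfa and Epgn were therefore above, and Egf, Erbb3 and Erbb4 below, in each adenosquamous tumour.

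Of 21 genes of TGF-beta, activin and BMP signalling, both adenosquamous tumours were above both others in 13 and below in none, with 10 higher at an unadjusted p under 0.05. Inhba, the activin A subunit, was at 73.4 and 100.7 CPM, against 1.93 and 0.905, and at 0 to 0.547 in the glands (log2 difference 5.99, SE 0.57, unadjusted p = 0.000236). Tgfb1 was at 43.2 and 42.3 CPM, against 5.27 and 9.95. Id2, a BMP target, was at 12.2 and 64.1 CPM, against 49.9 and 42.2, and its arms overlapped. The Notch list was mixed, with 7 of 16 tested genes above and 5 below, and 3 higher and 1 lower at an unadjusted p under 0.05. With 1 tumour left out these ranged from 0 to 6 higher and 0 to 6 lower. Notch1, a receptor, was at 1324 CPM in the papillary tumour, 191.8 in the tumour labelled spindle cell and 89.2 and 143.7 in the adenosquamous tumours. Jag1, a ligand, was at 181.4 and 158.5 CPM in the adenosquamous tumours, against 43.5 and 9.28, and Notch3 at 24.2 and 41.6, against 64.7 and 124.8. The Notch target Nrarp was at 228.8 CPM in the papillary tumour and at 8.10 to 12.3 in the other 3. Jag1 and Notch1 thus ran in opposite directions, and the papillary tumour was highest in receptor and target.

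**Figure D3:**
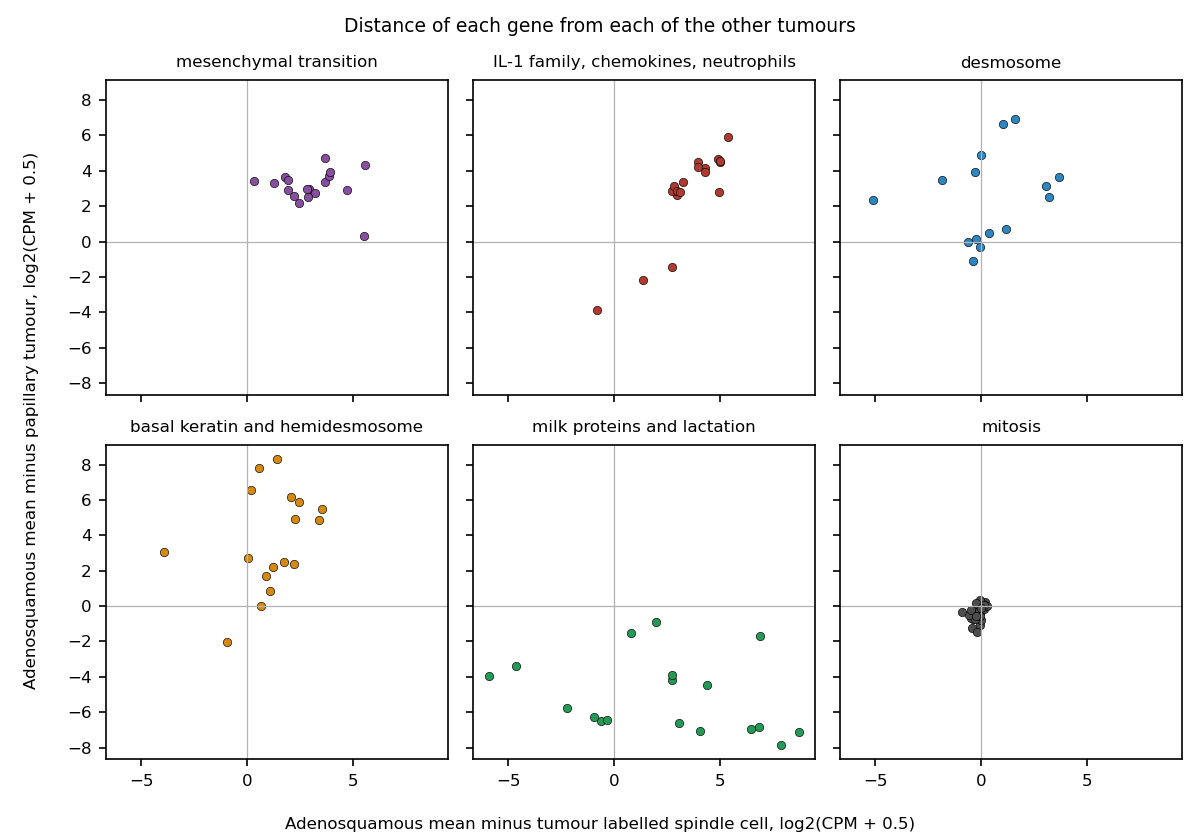
Each point is 1 tested gene of the list named above the panel: the x axis is the mean of the 2 adenosquamous tumours minus the tumour labelled spindle cell, the y axis the same mean minus the papillary tumour, both in log2(CPM + 0.5). Mesenchymal and IL-1 genes lie mostly at upper right, apart from both other tumours, basal keratin genes reach further on the y axis than on the x axis, milk genes lie below 0 on y and spread on x, and mitosis genes lie near the origin.

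Across all genes, the 10 with the smallest p in each direction at an average log2 CPM of at least 3 were set out by rule, and none passed the adjusted test. S100a6 (chr3:90612882-90624181), a calcium-binding protein of migrating and mesenchymal cells, had the smallest p. It was at 298.2 and 293.0 CPM in tumours 1a and 1b, against 13.1 and 14.0, a log2 difference of 4.44 (SE 0.34, unadjusted p = 9.14e-05). Hmga2 (chr10:120361275-120476469), an oncofetal chromatin protein, was at 61.8 and 46.7 CPM, against 0.129 and 0.428, and at 0 to 0.275 in the glands, a log2 difference of 7.37 (SE 0.64). Adamts4, a protease of matrix proteoglycans, was at 70.0 and 64.7 CPM, against 3.86 and 3.71. Nav1, a neuron navigator protein, was at 89.3 and 88.9 CPM, against 8.36 and 8.57, and Map1b, a microtubule protein of growing neurites, at 251.9 and 192.3, against 9.90 and 5.86. Adcy7, an adenylate cyclase, was at 94.1 and 91.1 CPM, against 10.5 and 11.2. In these genes the values within each arm were close and the arms far apart, which is what a small p selects. Nav1 and Map1b were also at 46.9 to 164.9 CPM in the glands, so the 2 other tumours were the ones away from the glands, whereas Hmga2, Inhba and S100a6 were low in glands and both other tumours. Wnt5a, Inhba and Hbegf completed the genes already described, and Rnu1b2, one of many near-identical U1 RNA copies, is uncertain.

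Among the 10 lower genes, Ccl28 (chr13:119623819-119654359), a chemokine of mucosal and mammary epithelium that draws antibody-producing cells, was at 0.343 and 0 CPM in tumours 1a and 1b, against 160.3 and 87.4 (log2 difference -9.17, SE 0.97). Vipr1, the receptor for vasoactive intestinal peptide, was at 3.09 and 3.69 CPM, against 52.6 and 46.7 (log2 difference -3.87, SE 0.35). Alox15, a lipoxygenase, was at 1.72 and 3.14 CPM, against 55.3 and 42.4, and Alox12e, a lipoxygenase also on chromosome 11, at 2.29 and 3.51, against 75.9 and 172.8. Gsta3, a glutathione transferase, was at 0.343 and 0.369 CPM, against 28.2 and 90.1. Klf15, a factor of lipid and amino acid metabolism, was at 1.03 and 0.924 CPM, against 14.5 and 26.5. The lipoxygenases were high only in the 2 other tumours, with glands at 0.0913 to 3.09 CPM, while Gsta3 and Klf15 in the glands were at 9.39 to 34.3 CPM and so were low only in the adenosquamous tumours. Rhpn2, Hdac11 and Fads6 were at 0.686 to 6.47 CPM in the adenosquamous tumours and at 23.0 to 48.0 in the others.

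**Figure D4:**
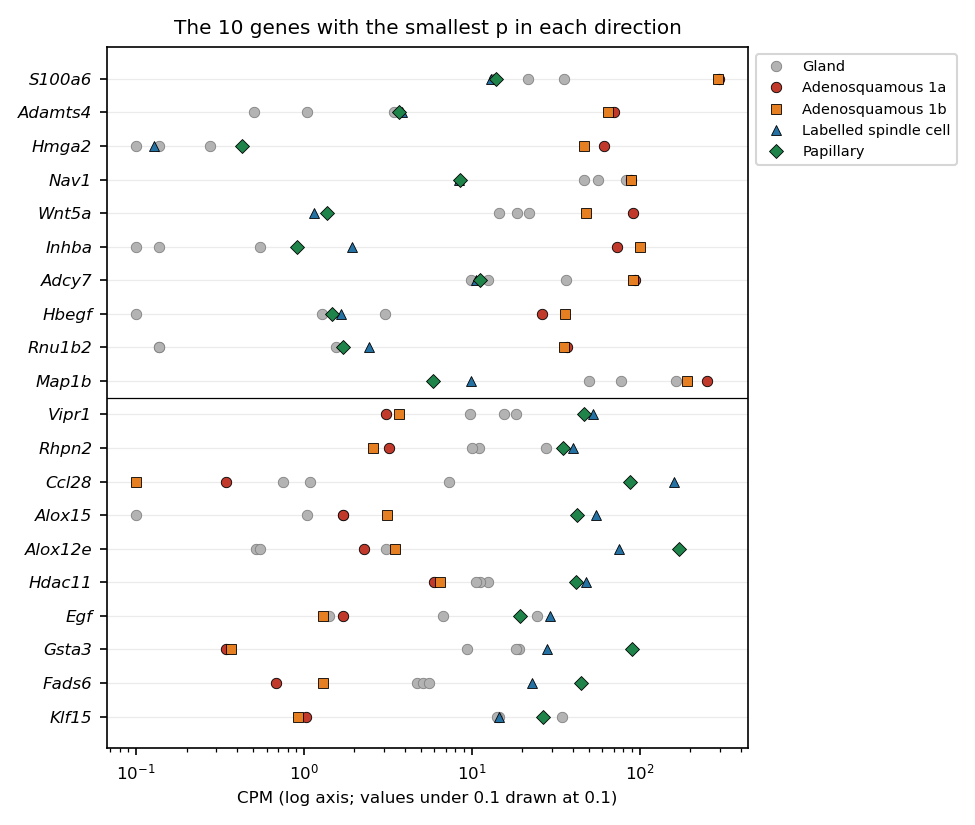
CPM on a log axis of the 10 genes with the smallest p in each direction, higher in adenosquamous tumours above the line and lower below it, 1 point per library. Circles and squares of the adenosquamous tumours nearly coincide for most genes, as for S100a6 at 298.2 and 293.0 CPM, and the glands (grey) fall with either arm.

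Most macrophage genes were higher in both adenosquamous tumours, and their summed level was higher in 1b than in 1a. Of 19 tested, both adenosquamous tumours were above both others in 15 and below in none, with 11 higher at an unadjusted p under 0.05, which became 3 without tumour 1b, and 11 called by DESeq2. Csf1r, the macrophage growth factor receptor, was at 126.1 and 115.6 CPM, against 22.1 and 28.6 (log2 difference 2.25, unadjusted p = 0.00122). C1qa, a complement protein of tissue macrophages, was at 99.97 and 195.6 CPM, against 28.5 and 36.8. The list summed to 1393 CPM in tumour 1a, 5893 in 1b, 289.4 in the tumour labelled spindle cell and 864.7 in the papillary tumour. Gpnmb, a gene of foamy and matrix-engulfing macrophages, was at 11.3 and 901.0 CPM in tumours 1a and 1b, and Mmp12, macrophage elastase, at 40.4 and 3745, with 101.7 and 80.8 in the papillary tumour. Macrophages and neutrophils are themselves sources of IL-1, Mmp9 and Mmp12, and the part of their number in those differences was not tested.

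Lymphoid genes were mostly in 1 adenosquamous tumour. The B and plasma cell list summed to 6669 CPM in tumour 1a and 717.8 in 1b, with 186.4 and 1049 in the other tumours, and without 1a the median log2 difference of its tested genes turned from 3.27 to -1.14. Only 6 of its 15 genes and 5 of the 20 T and NK cell genes were tested. Pax5, the B lineage factor, was at 20.2 CPM in 1a and at 0.286 to 0.514 in the other tumours, and Igkc, the antibody kappa chain, at 5638 CPM, against 24.9, 31.6 and 380.5 in tumours 1b, 3 and 4. One gland also held Pax5, at 67.5 CPM, and the other glands 0 and 0.0687. The T and NK list summed to 145.8 CPM in 1a, 88.1 in 1b and 13.1 and 10.8 in the others, with Trac, the T cell receptor alpha constant chain, at 8.81 CPM in 1a and 0 in 1b. Il7r, a cytokine receptor not limited to T cells, made up most of the list in 1b at 73.3 CPM.

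Skeletal muscle genes moved with the arms. Of 15 tested, both adenosquamous tumours were above both others in 14 and below in none, with 13 higher at an unadjusted p under 0.05 (8 without tumour 1a) and a median log2 difference of 6.24, the largest of the 35 lists. Some of these genes, such as Ckm and Actn3, passed the count filter only through the adenosquamous arm. The size of this median was thus set in part by the filter. Ttn, the muscle spring protein titin, was at 675.3 and 157.9 CPM in tumours 1a and 1b and at 6.81 in each of the others. Acta1, skeletal actin, was at 89.8 and 14.6 CPM, against 0.386 and 0.190. Glands 1 and 3 were far higher, with Ttn at 57240 and 77530 CPM, and gland 2 was at 110.1. The list summed to 1348 and 271.2 CPM in the adenosquamous tumours, 22.5 in the tumour labelled spindle cell and 15.7 in the papillary tumour. Desmin (Des), counted here with the myoepithelial genes, followed it at 88.1 and 17.5 CPM, against 1.93 and 1.19. Adipocyte genes did not separate the arms, with 1 of 13 tested genes above and 1 below. The part of adjoining muscle in other differences was not tested.

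**Figure D5:**
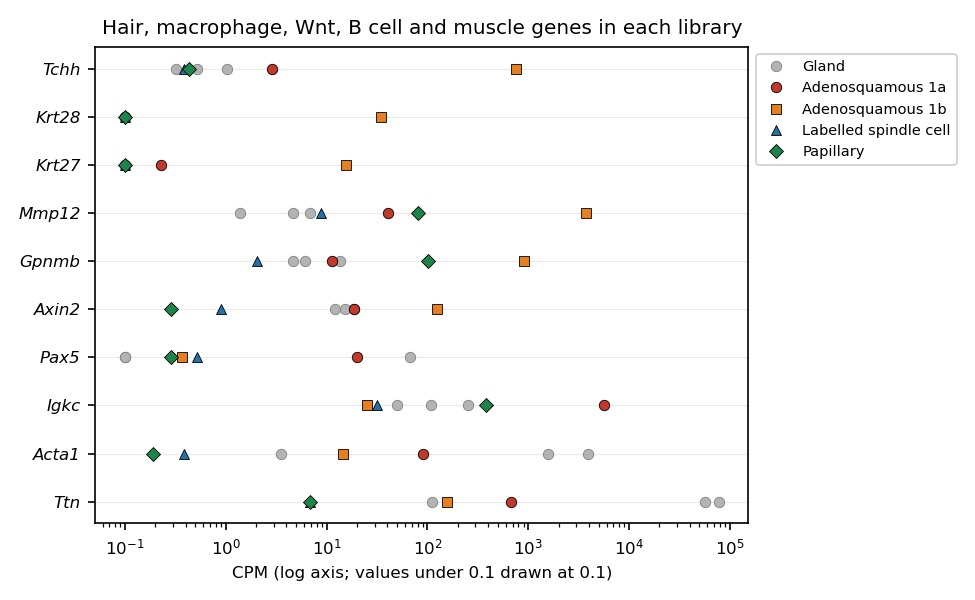
CPM on a log axis of 10 hair, macrophage, Wnt, B cell and muscle genes, 1 point per library, grey for the 3 control glands. Tumour 1b (squares) is high for Tchh, Krt28, Krt27, Mmp12, Gpnmb and Axin2, and tumour 1a (circles) for Pax5, Igkc, Acta1 and Ttn.

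Myoepithelial genes, which mark the contractile basal cells of the gland, were above both others in 6 of 12 and below in 1, with 3 higher at an unadjusted p under 0.05, 1 without tumour 1a, 2 without 1b or the papillary tumour and 9 without the tumour labelled spindle cell. Actg2, smooth muscle gamma actin, was at 14.8 and 8.50 CPM in the adenosquamous tumours, against 0.129 and 0.952. Oxtr, the oxytocin receptor, was at 87.8 CPM in the papillary tumour and at 1.83 to 2.59 in the other 3.

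Few genes of cell division had a small p. Of 26 mitosis genes, all tested, 1 was above and 5 below in both adenosquamous tumours and none was at an unadjusted p under 0.05, and of 26 replication genes none was above, 1 was below and none was at that p. Without the tumour labelled spindle cell, 2 mitosis and 5 replication genes were lower at that p, and without the papillary tumour 1 replication gene was. Mki67, a proliferation antigen, was at 374.3 and 325.8 CPM in the adenosquamous tumours, against 527.9 and 488.3 (log2 difference -0.54, SE 0.36, unadjusted p = 0.203), and all 4 tumours were above the glands at 12.5 to 40.9 CPM. Among 26 nucleolar and Myc-responsive genes, 14 were below and none above, yet 1 passed an unadjusted p under 0.05, Odc1, the first enzyme of polyamine synthesis, at 74.3 and 51.5 CPM against 123.3 and 285.1. That count was 0 without either adenosquamous tumour and 4 without the tumour labelled spindle cell. Of 23 nuclear genes of oxidative phosphorylation, 16 were below and none above, with 1 at an unadjusted p under 0.05 (8 without the tumour labelled spindle cell, 0 without any other tumour) and a median log2 difference of -0.64. Ndufb5, a complex I subunit, was at 22.0 and 17.0 CPM, against 32.5 and 45.4.

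Hypoxia, unfolded protein and glycolysis lists each held a share of genes higher at an unadjusted p under 0.05 that was no larger than the background of 11.2%. Their shares with both adenosquamous tumours above both others were larger than the 25.0% over all genes. Their shares below were smaller than the 24.8% over all genes. In the hypoxia list 8 of 19 were above and 2 below, with 2 higher and 1 lower at an unadjusted p under 0.05 (0 to 5 and 0 to 2 with 1 tumour left out). Adm, the vasodilator adrenomedullin, was at 10.2 and 32.3 CPM, against 3.60 and 0.857, and Vegfa at 147.0 and 347.3, against 105.6 and 70.4. In the glycolysis list 10 of 21 were above and 2 below, with 2 higher and 1 lower at an unadjusted p under 0.05. Without tumour 1b none was higher, and the median log2 difference went from 0.31 to 0.06. Among its members were Slc2a3, a glucose transporter, at 8.81 and 6.83 CPM, against 1.41 and 0.381, and Aldoc, an aldolase, at 13.5 and 56.7, against 139.1 and 134.8. In the unfolded protein list 11 of 24 were above and 1 below and 1 was higher at an unadjusted p under 0.05 (0 without the papillary tumour), Ddit3, the stress factor CHOP, at 8.58 and 14.0 CPM, against 3.99 and 3.24. Of 21 genes of fatty acid and sterol synthesis 4 were above and 4 below, with 1 higher and 0 lower at that p (9 lower without the tumour labelled spindle cell). Of 23 interferon response genes 8 were above and 1 below, with 3 higher and 0 lower at that p (7 lower without the tumour labelled spindle cell). Among them was Cxcl10, an interferon-induced chemokine, at 4.80 and 3.14 CPM, against 0.129 and 0.190. Of 20 p53 targets 5 were above and 1 below, no more than the background of 25.0% and 24.8%. At that p 3 were higher and 0 lower, beside 11.2% higher and 5.0% lower over all genes. The median log2 difference was 0.24, and -0.07 without tumour 1b. Pmaip1, the cell death protein Noxa, was at 16.6 and 22.0 CPM, against 0.514 and 2.43. In the glands Ddit3 was at 9.0 to 13.56 CPM and Slc2a3 at 7.56 to 14.08, so for both genes the other tumours lay below the glands.

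Mouse Ecd itself did not differ detectably between the arms. It was at 26.1 and 21.6 CPM in the adenosquamous tumours, 28.4 in the tumour labelled spindle cell, 26.9 in the papillary tumour, with glands at 18.8 to 27.6 (log2 difference -0.21, SE 0.31, unadjusted p = 0.522). The sources used here do not say whether transgene RNA is counted in this row. Of 17 genes for Ecd and its known partners, 1 was above and 6 below in both adenosquamous tumours, and none was at an unadjusted p under 0.05 (3 lower without the tumour labelled spindle cell). Txnip, a stress-responsive protein to which Ecd binds, was at 171.1 and 131.9 CPM, against 143.0 and 1018.

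The fit had 2 residual degrees of freedom. Counts were simulated with a pooled mean per gene, the fitted dispersions and the sizes of these 4 libraries. The tumour labelled spindle cell and the papillary tumour were thus drawn as replicates of a shared mean, although their labels differ. In these counts a log2 difference of 2 was called in 3 of 97 genes and one of 4 in 70 of 98, beside 7 false calls among 13503 genes. The common biological coefficient of variation was 0.53, and an exact permutation test of 2 against 2 cannot give a p under 0.333.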

How the data were processed

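RNA was measured by paired-end sequencing of unstranded TruSeq libraries, per the labels' protocols. STAR 2.5, RSEM 1.3, limma and GRCm38 are named, without roles, in the submitters' processing notes. The deposited tables give 1 value per gene for 50600 genes under the heading TPM. The sums differ between libraries and most values are whole, so they were taken for the authors' expected counts and rounded. The sources used here do not give the annotation release. Positions are from GENCODE M21 on GRCm38.

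The 4 tumours were scaled by TMM and filtered by filterByExpr (minimum count 10, total 15). They were tested two-sided with edgeR 4.0.16 in R 4.3.3 (quasi-likelihood F test), with Benjamini-Hochberg adjustment over all genes tested. The standard error (SE) is that of the log2 difference. Glands entered no test. Groups came from the tissue labels, and chi-square per degree of freedom between tumours 1a and 1b was 119, so they are not repeats of 1 library.

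The tumours compared, the 35 gene lists (757 memberships, 755 matched) and the naming rule were chosen with earlier results of these data known. The rule named 28 fixed genes, the 10 genes with the smallest p in each direction and up to 3 members per list. All other genes named, such as Tchh, Igkc, Fn1, Axin2, Krt19 and Sox2, were chosen after their values were seen. List medians did not move when members at 0 in a whole arm were set to a floor of 3 counts over that arm. Alternatives were DESeq2 1.42.0, limma-voom (limma 3.58.1), other scalings and filters, a thinned papillary library and leaving out each tumour. The test was tried on simulated counts. A gene under the filter's cutoff in both tumours of an arm passed only through the other arm. In any list it could be counted only in that direction. Depth limits genes with few counts most. Near-identical gene copies and genes overlapping on opposite strands are uncertain. Some genes are not reported here.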

Additional observations from a re-analysis of the deposited data

How the results depend on the processing

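No paired analysis was possible because each arm's replicate numbers were given in accession order and the other arm holds 1 library of each type. Genes past the adjusted threshold numbered 0 in edgeR and 1385 in DESeq2, and 2473 without the filter on low counts. Of these 2473, 2016 were tested with the filter and 1286 were shared with DESeq2. All other settings, including limma-voom, 2 further scalings, robust fitting, a filter of 10 counts in 2 tumours, no mitochondrial genes, a papillary library thinned to 6654544 counts and each tumour left out, called 0. Genes at an unadjusted p under 0.05 numbered 4443 without the filter and 1132 to 3659 with 1 tumour left out (1132 without tumour 1a, 1501 without 1b, 3659 without the tumour labelled spindle cell), 2646 with DESeq2 and 2217 to 2314 in the other settings. Distinct list members past the threshold numbered 0, 185 with DESeq2 and 303 without the filter. Of 176 named genes with a fit, 152 kept their direction in every fit and 110 passed in DESeq2. With 1 tumour left out, log2 differences ranged from -0.56 to 0.46 for Btg2, -2.20 to 0.91 for Ccnd1, -2.53 to 2.09 for Cd14, -1.39 to 0.21 for Cdh1, -7.26 to 10.26 for Csn2, -0.09 to 0.38 for Dkc1, -7.08 to 5.59 for Dsc3, -3.35 to 0.75 for Elf3, -1.17 to 5.52 for Esr1, -2.17 to 7.79 for Gpnmb, -1.91 to 0.48 for Id2, -3.05 to 6.46 for Igkc, -4.20 to 4.50 for Jchain, -4.77 to 3.54 for Krt19, -1.37 to 2.5 for Mfge8, -0.13 to 7.74 for Mmp12, -0.51 to 4.86 for Myc, -4.37 to 0.48 for Nrarp, -5.37 to 0.18 for Oxtr, -4.74 to 6.91 for Pitx1, 0.00 to 0.66 for Pola1, -0.34 to 0.29 for Sdhb, -2.79 to 0.07 for Txnip and -1.96 to 0.40 for Xbp1. With limma-voom Btg2 (0.02), Csn2 (1.44), Dsc3 (1.3), Esr1 (0.99) and Pitx1 (3.09) turned sign, as Sdhb did with upper-quartile scaling (-0.01), without the filter (-0.04) and with the thinned library (-0.02). The cause was not tested.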
